A study of Mus musculus with 8 samples.

Results

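The genes of adipocyte differentiation and lipid droplets were followed through the development of mouse dorsal skin. The set comprised 10 genes: the regulators Pparg and Cebpa, the fatty acid and triglyceride genes Fabp4, Lpl and Dgat2, the lipid droplet genes Cidec and Plin1, the adipokines Adipoq and Retn, and the enzyme gene Car3. All probesets annotated to exactly 1 of these symbols were taken, which gave 17 probesets for 9 of the 10 genes, among 34945 tested probesets of 18193 genes. Plin1, which encodes a droplet coat protein, was not analysed here because no probeset carried its symbol, alone or with another. Fabp4 and Car3 had 4 probesets each, Lpl and Dgat2 had 2 each, and the other 5 genes had 1 each. The skin came from wild-type embryos with no treatment, and its RNA was measured on 8 Affymetrix 3′ expression arrays of the mouse genome. Embryonic day 14.5 (E14.5) had 2 arrays, and E16.5 and E18.5 had 3 each. Arrays are named by stage and a replicate number in accession order, which pairs no arrays between stages. Whether each array came from a separate embryo is not stated in the labels, and the p-values speak only to the variation among these arrays, which may be technical.

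White adipocytes arise from mesenchymal precursors. PPARγ (Pparg), a nuclear receptor that binds DNA with RXR, and C/EBPα (Cebpa), a leucine zipper factor, sustain each other's expression and switch on the genes of fat uptake, storage and secretion. Late in the process the cell fills with triglyceride inside droplets coated by perilipins and enlarged by CIDEC, and it releases adiponectin (Adipoq) and resistin (Retn). In mouse skin these cells form the dermal white adipose tissue beneath the dermis, which first fills with lipid around birth. Several of the genes are also used by other cells of skin: C/EBPα and DGAT2 by keratinocytes, FABP4 by capillary endothelium and macrophages, lipoprotein lipase and carbonic anhydrase 3 by muscle.

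The RefSeq promoter table (build GRCm38.p6) held 9 windows for 6 of the genes, Pparg with 3, Cidec with 2, and Cebpa, Plin1, Adipoq and Retn with 1 each. The 250 bases before a start site are printed for Pparg and Cebpa as the regulators and for Cidec, Adipoq and Retn as the late genes, 5′ to 3′ on the strand of the gene. Capitals mark the motifs searched on both strands: AGGTCA, the nuclear receptor core site; TTGCNNAA, a C/EBP site; and TATAAA, the TATA box. The third start of Pparg lies after chr6:115421816-115422065 on the plus strand, that of Cebpa after chr7:35119043-35119292 on the plus strand, and the second start of Cidec on the minus strand beside chr6:113434765-113435014. The windows of Adipoq, chr16:23146286-23146535, and Retn, chr8:3655520-3655769, are both on the plus strand.
Pparg, start 3: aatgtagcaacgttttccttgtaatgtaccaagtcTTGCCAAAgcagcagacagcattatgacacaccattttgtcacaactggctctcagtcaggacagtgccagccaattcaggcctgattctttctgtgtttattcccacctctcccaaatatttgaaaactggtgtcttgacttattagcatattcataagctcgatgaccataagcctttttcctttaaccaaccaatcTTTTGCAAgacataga
Cebpa: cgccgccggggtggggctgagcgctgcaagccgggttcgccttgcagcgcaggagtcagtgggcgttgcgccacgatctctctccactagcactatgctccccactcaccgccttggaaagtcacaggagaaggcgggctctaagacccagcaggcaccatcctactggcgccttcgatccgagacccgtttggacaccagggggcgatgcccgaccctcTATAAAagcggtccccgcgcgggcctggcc
Cidec, start 2: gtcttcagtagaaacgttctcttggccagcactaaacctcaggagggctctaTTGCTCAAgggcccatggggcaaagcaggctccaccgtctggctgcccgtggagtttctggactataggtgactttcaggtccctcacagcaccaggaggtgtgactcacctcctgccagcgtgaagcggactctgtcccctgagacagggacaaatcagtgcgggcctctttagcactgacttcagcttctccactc
Adipoq: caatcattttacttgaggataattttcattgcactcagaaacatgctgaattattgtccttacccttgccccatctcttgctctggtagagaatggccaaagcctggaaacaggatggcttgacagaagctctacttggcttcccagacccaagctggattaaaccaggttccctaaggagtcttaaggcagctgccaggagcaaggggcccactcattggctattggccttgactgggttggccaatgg
Retn: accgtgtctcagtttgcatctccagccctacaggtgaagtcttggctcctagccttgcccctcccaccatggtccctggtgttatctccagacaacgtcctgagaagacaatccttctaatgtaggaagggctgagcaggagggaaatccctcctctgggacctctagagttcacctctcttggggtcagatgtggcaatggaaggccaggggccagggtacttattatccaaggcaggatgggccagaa

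The third Pparg window held TTGCNNAA at positions -215 and -16 from the start, and the second Cidec window held it at -198. The Cebpa window held TATAAA at -30. The windows of Adipoq and Retn held none of these letters. Among the windows not printed, the first Pparg start had AGGTCA at -28, the second had AGGTCA at -9 and a TATAAA on the other strand at -29, and Plin1 had TTGCNNAA at -187 and -58. Of 32851 mouse promoters of the same length, 16.3% held AGGTCA, 10.8% TTGCNNAA and 13.6% TATAAA. A pair of AGGTCA copies with 1 base between them, the PPAR-RXR repeat, occurred in 0.0396% of promoters and in none of the 9 windows. The printed windows ran from 40.8% G and C for Pparg to 66.4% for Cebpa, against a median of 52.4% over all promoters. A match is a description of the letters and does not show that a factor binds there.

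The deposited values are signal intensities on a linear scale, in the array's own units. On each array 77 probesets of smell receptor genes (olfactory and vomeronasal), taken as not expressed in skin, set the background through their 95th percentile, which lay between 37.1 and 92.9. The median signal of all 45101 probesets, tested or not, was 60.8 and 63.4 on the E14.5 arrays, 120.1 to 129 on those of E16.5 and 138 to 153 on those of E18.5. The ratio of 3′ to 5′ signal of the actin control, which rises as RNA or its copy is shortened, was 6.49 and 6.91 on the arrays of E14.5, between 1.11 and 1.14 on those of E16.5, and between 1.35 and 1.37 on those of E18.5. Preparation and stage therefore cannot be told apart in any difference from E14.5. Basal keratinocyte markers summed to 26330.4 to 54326 and dermal fibroblast markers to 77004 to 163864 over the 8 arrays. In whole skin, fewer cells of a type and less RNA per cell cannot be told apart. Changes are differences of log2(signal + 16) with their standard error (SE), a pseudocount that understates changes of low signals, and adjusted p-values are from limma with Benjamini-Hochberg adjustment over all 34945 probesets.

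Between E16.5 and E18.5 most of the set rose, the adipokine genes Adipoq and Retn and the droplet gene Cidec most of all, while Cebpa and Dgat2 fell. At E18.5 against E16.5, 13 of the 17 probesets rose and 3 fell at an adjusted p under 0.05, where 6.27% of all probesets rose and 4.44% fell. The median change of the 17 was 1.77, beside 0.12 for all probesets. The 7 probesets of Adipoq, Retn, Cidec and Car3, grouped here as late genes by role, all rose, with a median of 3.08 and a range of 2.38 to 5.85. Of these, 4 were of Car3, whose probesets 1449434_at and 1460256_at also rose at E16.5 against E14.5. The regulators Pparg and Cebpa moved in opposite directions. On 16 of the 17 probesets the arrays of the 2 stages did not overlap. The share of all probesets without overlap was not taken, so this count is a description only. When a change of more than 1.5-fold was required, the calls of Pparg, Cebpa, both Dgat2 probesets, Fabp4 1424155_at and Lpl 1415904_at were lost (adjusted p of 0.0639 and above), and the other 10 were kept.

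**Figure D1:**
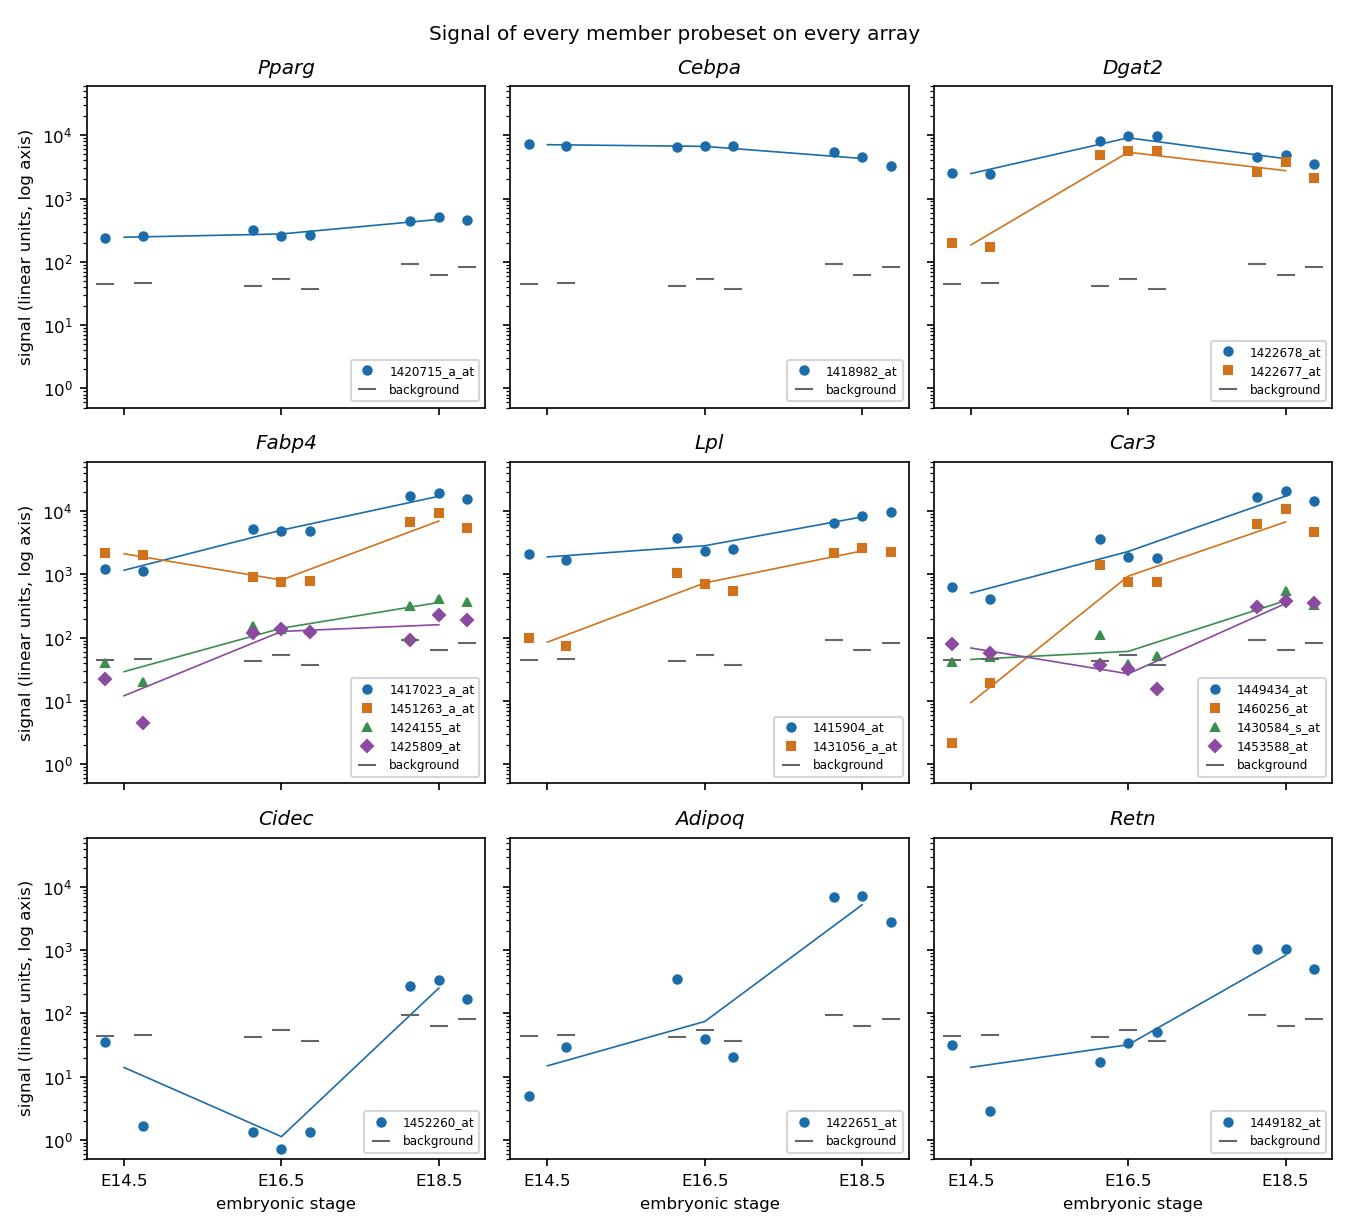
Signal (log axis, linear units) of each probeset on each array, by gene, against embryonic stage. Points are arrays, lines join the stage means of log2(signal + 16), and short grey dashes are the background of each array. Cidec and Retn lay near or under background before E18.5, where all 3 arrays stood above it, while Dgat2 was highest at E16.5 and Cebpa lowest at E18.5.

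Pparg was present at every stage and gained modestly at the last. Its probeset 1420715_a_at gave 238 and 252 at E14.5, then 319, 251 and 261 at E16.5, and 437, 506 and 464 at E18.5. All 3 arrays of E18.5 lay above every earlier array. The rise was 0.73 ± 0.17 (SE; 95% interval 0.35 to 1.11; adjusted p = 0.0243 from limma), or 1.66-fold. The call was lost without E16.5 replicate 2 (adjusted p = 0.107), E16.5 replicate 3 (0.114) or E18.5 replicate 2 (0.0567), and under median centring (0.0546).

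Cebpa was bright at every stage and fell at the last. Probeset 1418982_at gave 7391 and 6820.5 at E14.5, then 6476, 6812 and 6728 at E16.5, and 5379, 4469 and 3299 at E18.5. The 3 arrays of E18.5 were the 3 lowest of the 8. The change was -0.63 ± 0.16 (95% interval -0.98 to -0.28; adjusted p = 0.0296), a level 1.55-fold lower at E18.5. This call was lost without any 1 of the E16.5 arrays (adjusted p = 0.0841 to 0.108), without E18.5 replicate 2 (0.0569) and with no variance trend (0.0962).

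Markers of granular keratinocytes, the upper living layer of epidermis, were taken beside Cebpa and Dgat2. Their 10 genes summed to 77491 to 90692 at E18.5, against 61112 to 84948 at E16.5, with 1 gene up, 4 down and a median change of -0.48. Their part in the fall of Cebpa and Dgat2 was not tested.

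Dgat2, the enzyme that adds the last acyl chain to triglyceride, peaked at E16.5. Probeset 1422678_at gave 2539.7 and 2424 at E14.5, then 8162, 9658 and 9606 at E16.5, and 4545, 4903 and 3479.9 at E18.5. The second probeset, 1422677_at, gave 198 and 172 at E14.5, then 4952, 5637 and 5605 at E16.5, and 2624, 3815 and 2097 at E18.5. On both, E16.5 stood above all arrays of the other stages. The 2 probesets changed by -1.09 ± 0.14 (adjusted p = 0.00142) and -0.96 ± 0.19 (0.0120) at E18.5 against E16.5, levels 2.13-fold and 1.95-fold lower. The call of 1422677_at was lost without E16.5 replicate 2 (0.0547) or replicate 3 (0.0599).

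Fabp4 encodes the fatty acid carrier of the adipocyte cytosol. Its brightest probeset, 1417023_a_at, gave 1202 and 1124 at E14.5, then 5228, 4871 and 4887 at E16.5, and 17122, 19028 and 15394 at E18.5. The signal stepped up at each stage with no overlap. The last step was 1.77 ± 0.11 (adjusted p = 4.44e-05), or 3.42-fold.

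The other Fabp4 probesets did not all follow it. Probeset 1451263_a_at gave 2189 and 2043 at E14.5, then 907, 769 and 776 at E16.5, and 6732, 9193 and 5436 at E18.5, so it dipped at E16.5. Its change at E18.5 against E16.5 was 3.07 ± 0.17 (adjusted p = 3.96e-05), or 8.39-fold. The dimmer 1424155_at gave 40.5 and 19.9 at E14.5, then 154, 139 and 131 at E16.5, and 316, 405 and 363 at E18.5. It rose by 1.26 ± 0.25 (0.0115), which was no longer called with E16.5 replicate 2 (0.0528) or replicate 3 (0.0637) left out. The fourth probeset, 1425809_at, gave 22.5 and 4.47 at E14.5, then 118, 137 and 122 at E16.5, and 92.9, 229 and 189 at E18.5. Its E18.5 and E16.5 arrays overlapped, and its change of 0.32 ± 0.36 (95% interval -0.49 to 1.12; adjusted p = 0.613) was not called.

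Lpl encodes lipoprotein lipase, which frees fatty acids from circulating triglyceride. Probeset 1415904_at gave 2110.2 and 1680.2 at E14.5, then 3809.6, 2346 and 2539.6 at E16.5, and 6381, 8480.0 and 9767 at E18.5. Probeset 1431056_a_at gave 98.4 and 73.1 at E14.5, then 1037, 700.3 and 540.5 at E16.5, and 2187, 2633 and 2250.0 at E18.5. Every array of E18.5 exceeded every earlier one on both. The rises at E18.5 against E16.5 were 1.51 ± 0.21 (adjusted p = 0.00206), or 2.84-fold, and 1.66 ± 0.22 (0.00192), or 3.16-fold.

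Cidec, whose protein joins droplets and lets them grow, appeared at the last stage. Its signal was 35.0 and 1.64 at E14.5, then 1.36, 0.710 and 1.33 at E16.5, and 273, 338 and 171 at E18.5. No array of the earlier stages passed background and all 3 of E18.5 did. The rise was at least 4.45-fold against background (measured change 3.96 ± 0.41; adjusted p = 0.000581).

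Adipoq, the gene of the adipokine adiponectin, had the largest rise of the set at E18.5 against E16.5. Its signal was 5.05 and 29.3 at E14.5, then 351, 39.6 and 20.6 at E16.5, and 7023, 7215 and 2783 at E18.5. Only replicate 1 of E16.5 passed background among the earlier arrays. The rise at E18.5 against E16.5 was at least 47.1-fold on the log2(signal + 16) scale (measured change 5.85 ± 0.74; 95% interval 4.21 to 7.49; adjusted p = 0.00141). The mean signals of the 2 stages, 5674 and 137, stood 41.4-fold apart, with most of the E16.5 mean from replicate 1. The change ranked 4 among the rises of all probesets. Without E16.5 replicate 1 the measured change was 6.86, and without E16.5 replicate 3 it was 5.19.

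Retn, the gene of resistin, followed the same course. Its signal was 31.9 and 2.87 at E14.5, then 17.0, 34.2 and 50.9 at E16.5, and 1053, 1060.1 and 508 at E18.5. Of the earlier arrays, 1 of E16.5 passed background. The rise was at least 13.0-fold (measured change 4.14 ± 0.43; adjusted p = 0.000591). Cidec, Adipoq and Retn were each lowest on replicate 3 of the E18.5 arrays.

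Car3 encodes carbonic anhydrase 3, which is abundant in fat and in muscle. Probeset 1449434_at gave 628 and 408 at E14.5, then 3562, 1895 and 1792 at E16.5, and 16900.1, 20788 and 14637 at E18.5. Its highest signal was 53.4% of the highest signal on that array. Probeset 1460256_at gave 2.19 and 19.5 at E14.5, then 1388, 766 and 769.7 at E16.5, and 6236, 10628 and 4589.6 at E18.5. Both stepped up with no overlap, by 2.90 ± 0.26 (adjusted p = 0.000329), or 7.47-fold, and by 2.82 ± 0.35 (0.00129), or 7.08-fold, at E18.5 against E16.5.

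The 2 dimmer Car3 probesets had much of their earlier signal near background. Probeset 1430584_s_at gave 40.6 and 50.3 at E14.5, then 109, 37.7 and 50.9 at E16.5, and 314, 544 and 331 at E18.5. Probeset 1453588_at gave 80.5 and 58.2 at E14.5, then 36.4, 31.7 and 15.4 at E16.5, and 304, 385 and 354 at E18.5. Their rises at E18.5 against E16.5 were at least 4.78-fold and at least 6.03-fold, with adjusted p = 0.00308 and 0.000373.

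In the first interval the calls differed between the genes, and probesets of the same gene did not always agree. Stage and preparation cannot be told apart here. At E16.5 against E14.5, 9 of the 17 probesets rose and 2 fell, where 38.9% of all probesets rose and 18.7% fell, and the median change was 1.55 beside 0.38 for all probesets. Rises were thus common among all probesets in this interval. Of the 8 uptake and synthesis probesets 7 rose, and the largest measured rise of the set was that of Car3 1460256_at. Neither regulator was called, with 0.16 ± 0.19 for Pparg (adjusted p = 0.506) and -0.09 ± 0.18 for Cebpa (0.694).

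Dgat2 had its main rise in this first interval, by 1.87 ± 0.15 (adjusted p = 1.99e-06) and 4.75 ± 0.21 (4.76e-08) on its 2 probesets, or 3.66-fold and 26.9-fold. Fabp4 1417023_a_at rose by 2.09 ± 0.12 (1.73e-07), 1424155_at at least 2.56-fold and 1425809_at at least 2.31-fold, while 1451263_a_at changed by -1.36 ± 0.20 (0.000124), a level 2.57-fold lower at E16.5. Lpl 1431056_a_at rose by 2.89 ± 0.25 (2.66e-06), or 7.41-fold. Lpl 1415904_at rose by 0.58 ± 0.23 (0.0495), a call lost in 5 of the 8 fits without 1 array.

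Among the late genes, Car3 alone was called in the first interval, on 3 of its 4 probesets. Probeset 1449434_at rose by 2.15 ± 0.29 (adjusted p = 7.71e-05), or 4.43-fold, and 1460256_at rose at least 15.5-fold (9.57e-07). Probeset 1453588_at was at least 1.41-fold lower at E16.5 (adjusted p = 0.0214), a call lost without E14.5 replicate 1 (0.117) or E16.5 replicate 3 (0.0780), and 1430584_s_at changed by 0.32 ± 0.39 (0.516). Adipoq changed by 1.55 ± 0.83 (0.134), Retn by 0.68 ± 0.48 (0.262) and Cidec by -0.81 ± 0.46 (0.161), and none was called. Their signals were at or near background, apart from Adipoq on E16.5 replicate 1. These values rest on single arrays: leaving out 1 array, Adipoq ran from 0.55 to 2.21, called without E16.5 replicate 3 (0.0388), and Retn ran from 0.0031 to 1.35. Cidec ran from -1.57, called without E14.5 replicate 2 (0.0124), to -0.042.

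**Figure D2:**
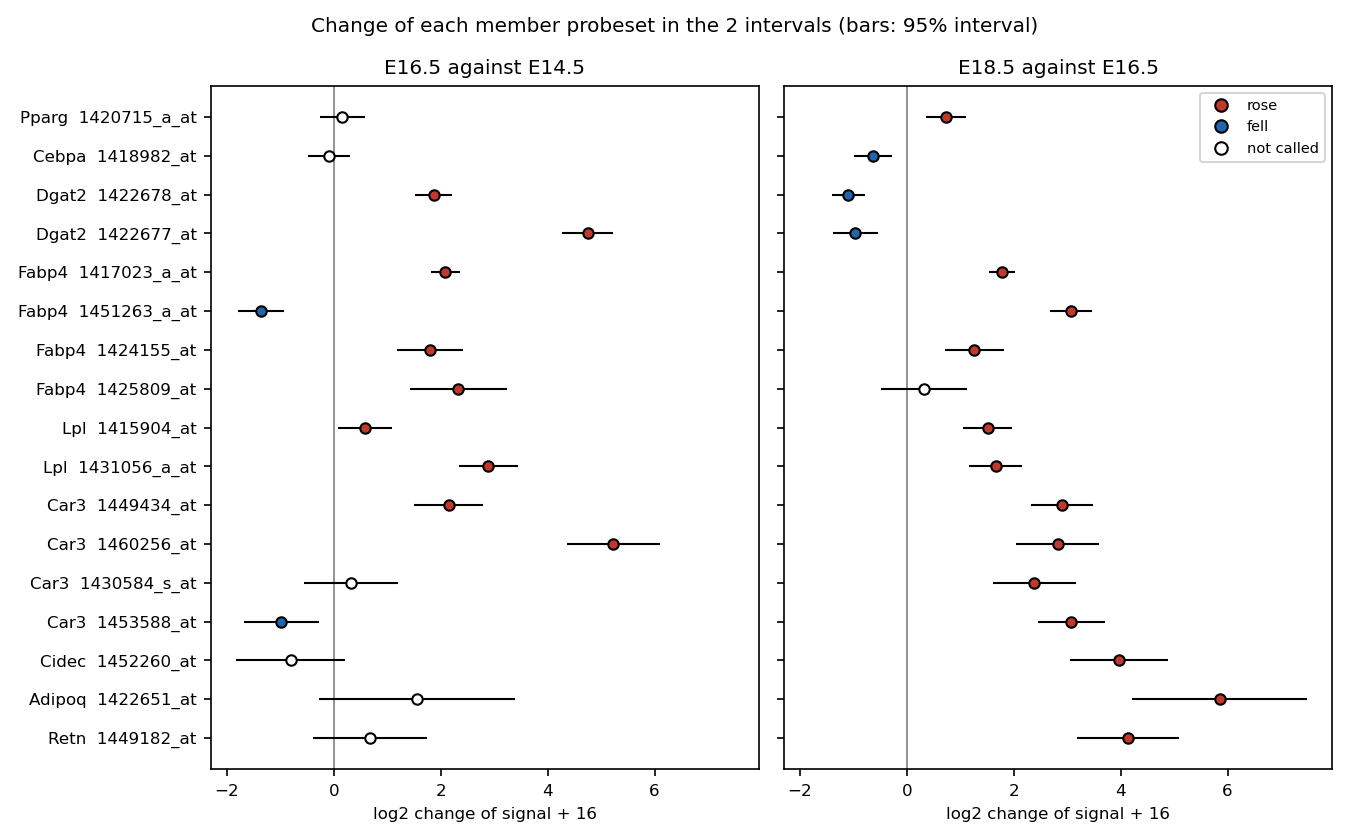
Change of log2(signal + 16) for each probeset in the 2 intervals, with 95% intervals from limma. Red points rose, blue points fell and open points were not called. The 7 probesets of Car3, Cidec, Adipoq and Retn lie between 2.38 and 5.85 at E18.5 against E16.5, and Dgat2 lies right of 0 in the first interval and left of 0 in the second.

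The scaling between arrays bears on the first interval. Median centring shifted the median of all probesets by -0.95 at E16.5 against E14.5 and by -0.12 at E18.5 against E16.5, and quantile normalization by -0.40 in the first. Under them Pparg changed by -0.79 (adjusted p = 0.00583) and -0.66 (0.0176) in the first interval. Cebpa changed by -1.04 (0.000683) under median centring and by 0.45 (0.0327) under quantile normalization. The direction of either regulator in the first interval therefore depends on the scaling.

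Over the whole period, E18.5 against E14.5, 16 of the 17 probesets rose and 1 fell, where 42.9% of all probesets rose and 16.9% fell. The median change was 3.06, beside 0.59 for all probesets. Adipoq was at least 85.3-fold higher, Retn at least 13.8-fold, Cidec at least 4.37-fold and Car3 1460256_at at least 110.1-fold. Pparg rose by 0.89 ± 0.19 (adjusted p = 0.00211), which became -0.18 (0.483) under median centring and 0.07 (0.784) under quantile normalization. Cebpa changed by -0.72 ± 0.18 (0.00436), which became -0.25 (0.214) under quantile normalization. Dgat2 stayed above E14.5 by 0.78 ± 0.15 on 1422678_at, which became -0.29 under median centring, and by 3.79 ± 0.21 on 1422677_at.

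The second change minus the first tested whether the intervals differed. Of the 17 probesets, 6 were called with the more positive change in the second interval and 5 with it in the first. The shares of all probesets called in these directions were 15.8% and 29.1%, so the count of 5 lay near the share of all. Called or not, 9 of the 17 differences were positive. Dgat2 had the most negative differences, -2.96 ± 0.25 (adjusted p = 7.16e-06) and -5.71 ± 0.35 (1.53e-06). Retn gave 3.46 ± 0.78 (0.00413), Adipoq 4.29 ± 1.33 (0.0225) and Cidec 4.77 ± 0.74 (0.00039), all positive. With signals at or below background taken anywhere from 0 to background, these lay between 1.68 and 6.28 for Retn, 2.76 and 7.28 for Adipoq, and 0.25 and 6.00 for Cidec. The Adipoq call was lost in 5 of the 8 fits without 1 array (adjusted p up to 0.111), where its value ran from 2.98 to 6.31, and with no variance trend (0.0502), robust variances (0.0595) or a pseudocount of 1 (0.0831). The Retn call was lost with a pseudocount of 1 (0.0734), and its value ran from 2.79 to 4.13 without 1 array. Cidec kept its call and ran from 4.01 to 5.54.

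The probesets of Fabp4, Lpl and Car3 disagreed on this difference. Fabp4 gave 4.43 ± 0.32 (adjusted p = 3.07e-06) on 1451263_a_at and -2.02 ± 0.66 (0.0279) on 1425809_at. Car3 gave 4.06 ± 0.51 (9.67e-05) on 1453588_at and -2.40 ± 0.63 (0.00974) on 1460256_at, no longer called with E16.5 replicate 1 left out (0.0550), under median centring (-1.57, 0.0636), quantile normalization (-1.79, 0.0610) or with a pseudocount of 64 (-0.99, 0.177). Lpl gave -1.23 ± 0.40 (0.0284) on 1431056_a_at and 0.92 ± 0.37 (0.0654) on 1415904_at. The calls of Fabp4 1425809_at and Lpl 1431056_a_at were each lost in 4 of the 8 fits without 1 array (adjusted p up to 0.0974 and 0.153), and with a pseudocount of 64 (0.0724 and 0.100), median centring (0.143 and 0.423) and quantile normalization (0.0792 and 0.922). Pparg, at 0.57 ± 0.31 (0.166), and Cebpa, at -0.54 ± 0.28 (0.148), were not called.

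Set side by side at E18.5 against E16.5, the early regulators and the late genes did not overlap in the size of their changes. Pparg at 0.73 and Cebpa at -0.63 lay under the lowest late probeset, Car3 1430584_s_at at 2.38. The groups are fixed by the choice of genes, so no test was made of them. From E14.5 to E18.5 the regulators stayed above background on all 8 arrays, while Cidec, Adipoq and Retn passed it on 0, 1 and 1 of the 5 earlier arrays. Car3, counted here with the late genes, differed from them in this. Its probeset 1449434_at passed background on all 5 earlier arrays, and 1460256_at on 0 of E14.5 and all 3 of E16.5. The dimmer 1430584_s_at passed it on 1 of E14.5 and 2 of E16.5, and 1453588_at on 2 of E14.5 and 0 of E16.5.

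The arrays of a stage differed for the set as a whole. E18.5 replicate 2 was the highest of its stage on 15 of the 17 probesets, against 28.5% of all probesets, and replicate 3 was the lowest on 10, against 32.5%. E16.5 replicate 1 was the highest of its stage on 12, against 33.8%. The 9 adipocyte markers measured, of 12 listed, summed to 1727 and 1771 at E14.5, then 6470.0, 6059 and 5837 at E16.5, and 27022, 29579 and 20420.3 at E18.5, and 7 of them rose at E18.5 against E16.5. Most of that sum came from genes of the set itself.

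Other cell types moved in their own ways. The 15 skeletal muscle markers summed to 189921, 144709 and 220887 at E18.5, against 119983, 128306 and 132636 at E16.5, with 2 genes up and a median change of 0.51. The 2 were Myh1, by 4.69 ± 0.28 (adjusted p = 3.96e-05 from limma), and Myh8, by 1.53 ± 0.22 (0.00258), and the others were not called. Myh1 gave 1729, 1121 and 898 at E18.5, against 34.8, 35.6 and 24.3 at E16.5, below background there. The muscle sum was lowest on E18.5 replicate 2, where both bright Car3 probesets were highest. Of the 2 muscle genes that rose, Myh8 was lowest on replicate 2 and Myh1 on replicate 3. The 10 endothelial markers summed to 7814 to 8457 at E18.5, against 8341 to 9587 at E16.5, with none up, 1 down and a median change of -0.08, beside the rises of Fabp4. Macrophage markers, which stand beside Fabp4 and Lpl, summed to 11241 to 14995 at E18.5, against 9201 to 10095 at E16.5, with 3 up and 1 down. Milk and mammary genes summed to 6561, 34463 and 973 at E18.5, against 804 to 857 at E16.5, and were highest on replicate 2 as the set was. Sebocyte markers, 5 of 10 measured and 1 of them Pparg itself, summed to 10059.7, 12219.7 and 8420.2 at E18.5, against 6605, 7032 and 7116 at E16.5, with 3 up, none down and a median change of 0.73. Their sum, like much of the set, was highest on E18.5 replicate 2 and lowest on replicate 3. The part of muscle, endothelium, macrophages, sebocytes and mammary tissue in these results was not tested.

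**Figure D3:**
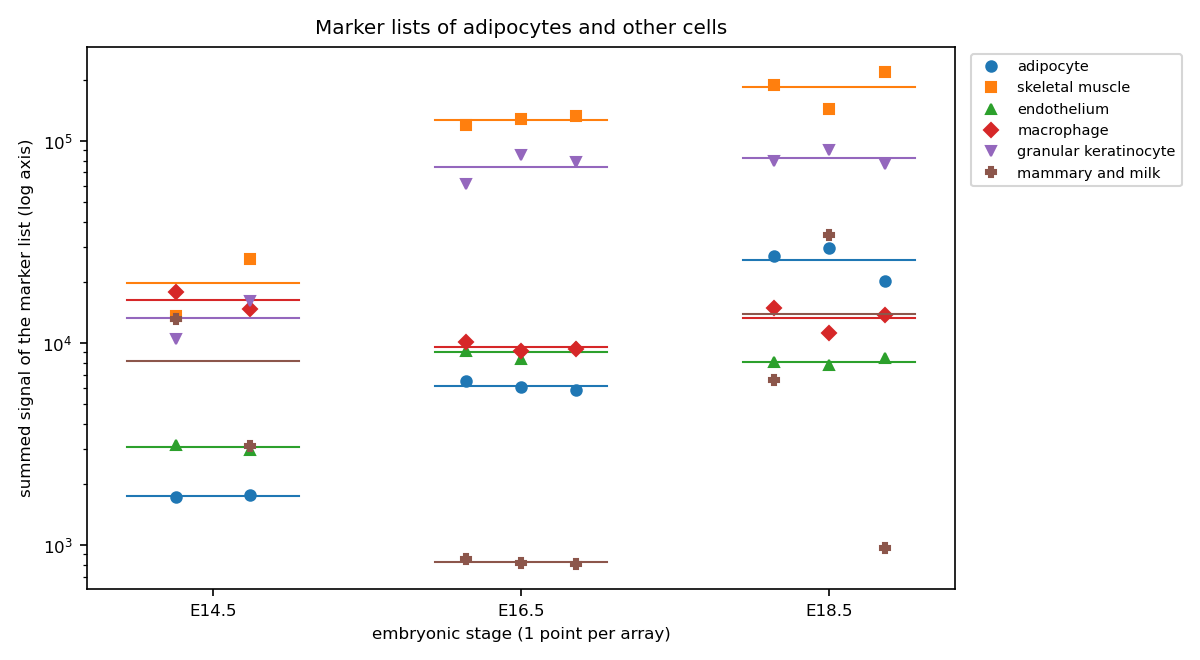
Summed signal (log axis) of 6 marker lists on each array, by stage. Points are arrays and short lines are stage means. Adipocyte markers run from 20420.3 to 29579 at E18.5, above 5837 to 6470.0 at E16.5, and milk genes spread from 973 to 34463 within E18.5.

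The wider adipocyte programme was read from 8 lists with 107 genes, of which 100 were measured by the brightest probeset of each. At E18.5 against E16.5, 23 rose, 4 fell and 73 were not called, where 6.9% of all genes rose and 5.23% fell by the same measure. Of 20 other regulators of adipogenesis, limma called none, under the trended fit or the fits without a trend or with robust variances, and 4 had an unadjusted p under 0.05. Their median change was -0.06. Of 7 lipolysis genes 3 rose, of 8 uptake genes 4 rose and 1 fell, and of 17 synthesis genes 6 rose and 1 fell.

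The largest rise in the wider lists was that of Gpd1. This gene, which makes the glycerol backbone, had 1021 ± 176 at E18.5, against 92.3 ± 46.0 at E16.5 (SD, n = 3 each), a change of 3.35 ± 0.34 (adjusted p = 0.000505 from limma). Scd1, the desaturase of stored fat, had 2758 ± 1439 against 557 ± 40.7 and rose by 2.12 ± 0.35 (0.00484). At E14.5 Scd1 had 2716 ± 868 (SD, n = 2), near its level at E18.5. Its change into E16.5 was -2.22 ± 0.39 (0.000514). Elovl6, an elongase, fell by 1.11 (SE 0.12; 0.000628). Cd36 and Vldlr, receptors for fatty acid and lipoprotein uptake, rose by 1.08 ± 0.21 (0.0117) and 1.29 ± 0.16 (0.00118), and Angptl4, an inhibitor of lipoprotein lipase, fell by 0.66 (SE 0.18; 0.0440). Vldlr had 1852 ± 185 at E14.5 (SD, n = 2), above its 818 ± 54.3 at E18.5. Its change into E16.5 was -2.46 ± 0.18 (6.8e-07). Stage and preparation cannot be told apart in these differences from E14.5.

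Droplet and lipolysis genes rose in part. Plin4, a droplet coat gene of adipocytes, had 427 ± 86.2 at E18.5, against 73.0 ± 11.5 at E16.5 (SD, n = 3 each), a change of 2.31 ± 0.32 (adjusted p = 0.00220 from limma). G0s2, an inhibitor of the triglyceride lipase Pnpla2, rose by 2.09 ± 0.34 (0.00448), and Pnpla2 itself by 1.02 ± 0.24 (0.0241). Cav1, of caveolae, rose by 0.60 ± 0.13 (0.0171), and Rab18, a small GTPase of droplets, fell by 0.57 (SE 0.13; 0.0227). Of the 13 droplet genes, 2 rose and 1 fell.

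Of 12 further adipokine, secreted and receptor genes, 3 rose and none fell. Tshr, a receptor that adipocytes carry, was at least 2.87-fold higher (adjusted p = 0.000476), and Rarres2, the gene of chemerin, rose 2.14-fold (0.0153). The third, Lep (leptin), chosen after its values were seen, was called but stayed at or near background, with 33.3, 63.4 and 55.3 at E18.5, against 1.12, 3.62 and 0.955 at E16.5. Among 14 progenitor genes, Sox9 rose by 1.32 ± 0.21 (0.00465) and Icam1 by 0.70 ± 0.16 (0.0209), and Sfrp5 fell by 0.83 (SE 0.21; 0.0298). Both Sox9 and Icam1 were lowest at E16.5, with means of 552 and 845 at E14.5, 211 and 431 at E16.5, and 562 and 711 at E18.5. Of 9 brown adipocyte genes 3 rose, Dio2, Elovl3, at least 5.06-fold (0.00618), and Cox7a1, at least 3.06-fold (0.00971). Which cells of the skin these rises came from was not tested. Ucp1, the heat-producing uncoupler that defines brown adipocytes, had 23.5 ± 14.1 at E18.5, against 23.0 ± 14.5 at E16.5 (SD, n = 3 each), with 0 arrays above background at either stage. Dio2 and Ucp1 are named after their values were seen. The calls of Icam1, Sfrp5, Cd36, Angptl4, Cav1, Rab18, Pnpla2 and Rarres2 were each lost without at least 1 single array (adjusted p up to 0.186). Those of Sox9, Vldlr, Scd1, Elovl6, G0s2, Cox7a1 and Elovl3 were lost with a minimum fold of 1.5 (0.0622 to 0.205). Of the 18 genes named from these lists by size of change, only 3, Gpd1, Plin4 and Tshr, were called under all alternatives.

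**Figure D4:**
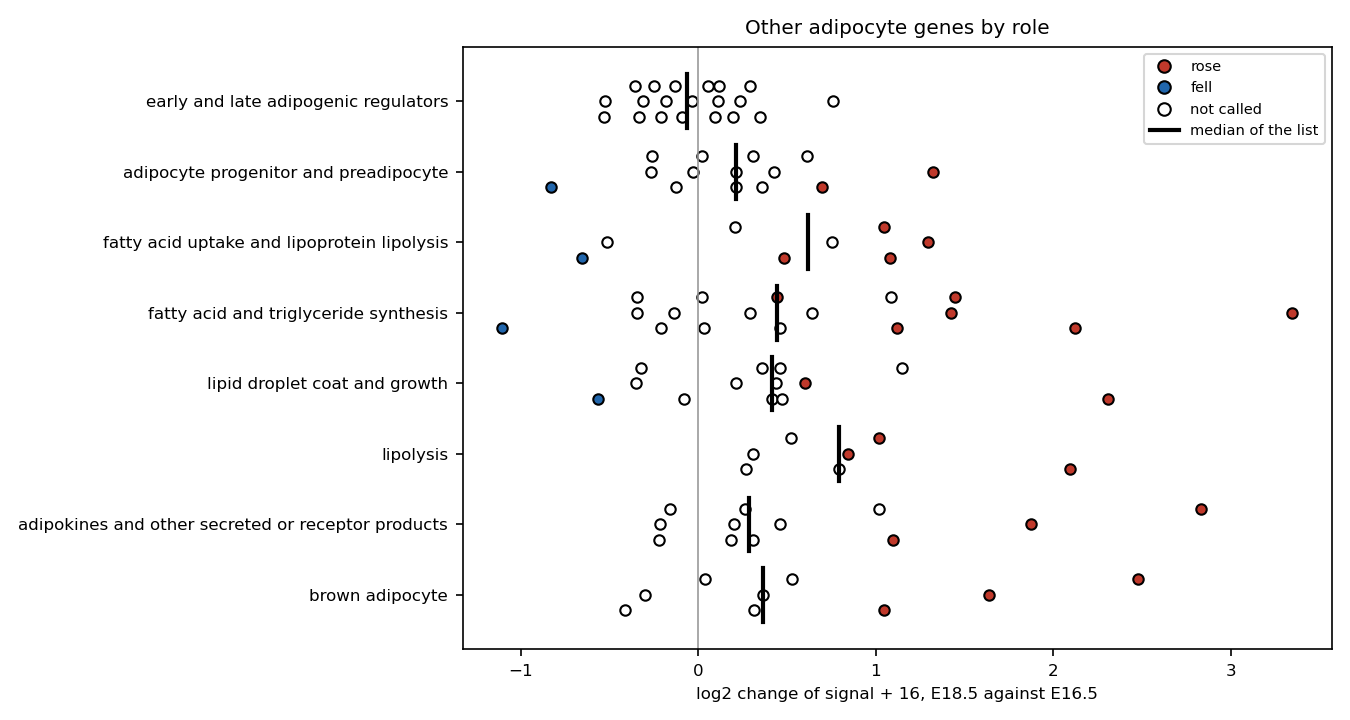
Change of log2(signal + 16) at E18.5 against E16.5 for the 100 measured genes of the 8 wider lists. Red points rose, blue points fell, open points were not called and bars are list medians, which run from -0.06 for regulators to 0.79 for lipolysis.

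At E16.5 against E14.5 the same 100 genes gave 43 rises and 22 falls, where 37.3% of all genes rose and 21.3% fell. Among the regulators, Cebpb, which acts before Pparg in cultured preadipocytes, had 5010.0 ± 245 at E16.5 (SD, n = 3), against 167 ± 26.2 at E14.5 (n = 2), and rose by 4.78 ± 0.14 (adjusted p = 1.49e-08 from limma). Klf5 rose by 3.94 ± 0.17 (4.08e-08), while Ebf1 changed by -2.97 ± 0.30 (7.93e-06) and Nr2f2 by -2.92 ± 0.18 (3.02e-07). Keratinocytes also use Cebpb and Klf5, and granular keratinocyte markers summed to 61112 to 84948 at E16.5, against 10516 and 16235 at E14.5. Their part in these rises was not tested. Plin3, a droplet coat gene of many cells, rose by 4.04 ± 0.21 (1.01e-07), and Plin2 changed by -1.31 ± 0.22 (0.000428). Mgll, the monoglyceride lipase, was at least 9.48-fold higher (7.05e-08). Dio2, the deiodinase of brown fat, rose by 0.74 ± 0.23 (0.0186), which became -0.21 under median centring and -0.19 under quantile normalization.

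The genes most like Adipoq and Cebpa were sought over the 6 arrays of E16.5 and E18.5 among 4251 genes, as a description with no test, in which all points share the difference between these stages. Nearest to Adipoq was C1qtnf3, an adiponectin paralogue, with Pearson r = 0.993, then Fbxw17 (0.990), Riok2 (0.990), Prss12 (0.989) and Particl (0.989). C1qtnf3 gave 1623, 1808 and 1425 at E18.5, against 1053, 768 and 641 at E16.5. Nearest to Cebpa were Scnn1a (0.998), Endou (0.997), Peg10 (0.994), Elf5 (0.993) and Def8 (0.993). Endou gave 5640.4, 4789 and 3523 at E18.5, against 7256, 7558 and 7687 at E16.5, with the same order of the E18.5 arrays as Cebpa.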

How the data were processed

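RNA of wild-type dorsal skin was measured on 8 arrays. The deposited values are signal intensities on a linear scale for 45101 probesets. Affymetrix Expression Console 1.1 and PLIER 2.0 are named, per the submitters' processing notes, without their roles. The sources used here do not state how background was corrected or arrays were normalized. Per the labels' protocols, total RNA was amplified from random hexamers and labelled as sense DNA, a protocol of whole-transcript arrays, whereas this is a 3′ expression array.

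Control probesets (64) and probesets with several symbols (932) or none (9211) were left out. The RefSeq table of GRCm38.p6 held the gene ID of 34741 tested probesets, and 0 symbols changed. Signals were analysed as log2(signal + 16) with limma 3.58.1 (R 4.3.3): a mean per stage over all 8 arrays, then eBayes with a variance trend. The fit was tested on simulated data. Calls were made at an adjusted p under 0.05 (Benjamini-Hochberg). Where any array of the dimmer stage was at or below background, the fold is a lower bound, written "at least": the brighter mean over the higher of background and signal, on the log2(signal + 16) scale. The number of arrays limits the precision.

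The members and lists were chosen with earlier results of these data known. All probesets of the set are given. From each wider list, up to 2 genes in each direction with the largest called change were eligible to be named, if stages did not overlap and the higher mean passed background. Alternatives covered the pseudocount, scaling, filters, variance model, array weights, the unit of test, a minimum fold of 1.5 and each array left out.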

Additional observations from a re-analysis of the deposited data

How the results depend on the processing

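Of the 16 probesets called at E18.5 against E16.5, 10 were called under all alternatives, as were 9 of 11 at E16.5 against E14.5, 14 of 17 at E18.5 against E14.5 and 5 of 11 for the second change minus the first; for the others the cause was not tested. With 1 value per gene the tests had 9 genes in place of 17 probesets, so counts fell by construction. At E18.5 against E16.5 the 13 rises became 7 with the brightest probeset of each gene, 7 with the mean of all its probesets and 8 with the stricter background filter, and 11 to 13 without each array in turn. The 3 falls became 0 with a minimum fold of 1.5, and 1 to 3 without each array. At E16.5 against E14.5 the 9 rises became 3 (brightest) and 4 (mean), and 8 to 9 without each array. The 2 falls there became 0 (brightest), 0 (mean), 1 (stricter filter), 1 (minimum fold) and 5 (median centring), and 1 to 3 without each array. At E18.5 against E14.5 the 16 rises became 8 (brightest), 8 (mean) and 10 (stricter filter), and 16 without each array, and the 1 fall became 0 with the minimum fold and 0 with quantile normalization. The 11 calls of the second change minus the first became 4 (brightest), 4 (mean) and 7 (stricter filter), and 7 to 11 without each array. In the wider lists, the 4 falls at E18.5 against E16.5 became 2 with no variance trend, and at E16.5 against E14.5 the 43 rises and 22 falls became 26 and 41 under median centring.

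Median centring reversed Pparg (-0.79), Lpl 1415904_at (-0.37), Retn (-0.28), Car3 1430584_s_at (-0.63) and Dio2 (-0.21) at E16.5 against E14.5, Pparg (-0.18) and Dgat2 1422678_at (-0.29) at E18.5 against E14.5, and Cebpa (0.29), Fabp4 1417023_a_at (0.52) and Fabp4 1424155_at (0.30) in the second change minus the first. Quantile normalization reversed Pparg (-0.66), Cebpa (0.45), Car3 1430584_s_at (-0.36) and Dio2 (-0.19) at E16.5 against E14.5, and Fabp4 1424155_at (0.060) in the second change minus the first. The mean of probesets reversed Fabp4 (0.39) and Lpl (-0.15) in that difference, and leaving out E16.5 replicate 1 reversed Car3 1430584_s_at at E16.5 against E14.5, whose change ran from -0.031 to 0.58 without each array. Median centring moved the share of rises among all calls to 38.5%, from 58.6%, at E18.5 against E16.5 and to 33.1%, from 67.5%, at E16.5 against E14.5; quantile normalization gave 50.7% and 51.4%. All called probesets at E18.5 against E16.5, 2191 rises and 1551 falls with every array, numbered 1208 to 4120 in total without each array in turn. Lower bounds of folds rose by up to 1.22 times with background at the 90th percentile and changed by 0.983 to 1.35 times without the pseudocount, an alternative chosen after seeing the data. No paired analysis was possible because the replicate numbers only name arrays and the labels pair none between stages.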
